A study of Homo sapiens with 15 samples.

Results

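Introns longer than 10 kb were followed in the intron retention data of HCT116 cells, a human colon cancer cell line, with and without bktRNA1. An intron counted as long when its end minus its start, as listed, came to more than 10000 bases. Introns were matched between tables by chromosome, both ends and strand. Of 111143 introns listed in at least 1 of the 4 tables, 9480 in 4751 genes were long, and 5747 of the 83066 introns listed in all 4 tables were long. Polyadenylated RNA was sequenced from 4 bktRNA1-deficient clones, named KO-1 to KO-4, and from the wild-type line (WT), with 3 libraries each from 3 independent experiments per the labels. All groups were HCT116 cells grown in the same medium, and each clone is 1 isolate set against the same 3 WT libraries. The labels do not describe bktRNA1 or how the clones were made. Its RNA was not measured here, and the clones are called deficient on the word of the labels alone. The question is whether cells without bktRNA1 keep more or less of their introns in polyadenylated RNA.

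Most human introns are removed by the major spliceosome, which reads a short donor site and a branch site and acceptor at the far end, and a small class is removed by the minor, U12-dependent spliceosome. Long introns are known to hold cryptic splice sites, alternative first exons and early polyadenylation signals, and they are transcribed long before their acceptor is made. A junction read can show a retained intron only at its ends, over the exon-intron boundary, so the values below speak of the ends of a long intron and not of its full length.

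SRPK1, USP10 and CCDC84 each held a long intron that was higher in at least 3 clones, and their sequences are given to show where the reads lie. Each line below gives the spliced junction as read in mRNA from GENCODE 29 transcripts on GRCh38, with the last 2 bases of the upstream exon and the first 2 of the downstream exon in capitals.
SRPK1 intron 6: ttaatggaacACATatctgcatgg
USP10 intron 5: taaagattgcAGAGttgctggaga
CCDC84 intron 3: ggattatgcgCGATtcaagaaatc
For CCDC84, GENCODE 29 transcripts of the retained-intron class run over both ends, so the ends themselves can be shown. The first line has the first 8 intron bases in capitals, and the second the last 2.
CCDC84 donor: ggattatgcgcgGTGAGTCActgg
CCDC84 acceptor: tgccccttttctttttAGattcaagaaatc

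The 3 introns lie in genes with roles in splicing and protein turnover. SRPK1 encodes a kinase that phosphorylates SR splicing factors, and its intron 6 of 15 (GRCh38 chr6:35874340-35886723, minus strand, 12384 bases) holds no annotated exon. USP10 encodes a deubiquitinase that acts on p53, and its intron 5 of 14 (chr16:84745674-84758715, plus strand, 13042 bases) holds none either. CCDC84 encodes a protein of the minor spliceosome, and its intron 3 of 10 (chr11:118999110-119010763, plus strand, 11654 bases) holds 5 annotated exons, 4 of them of the other genes AP003392.1, AP003392.2 and RPL23AP64. Those 4 exons lie on the other strand. The library kit keeps the strand, but whether the authors' junction counts used it is not stated in the sources at hand.

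SRPK1 intron 6 rose in all 4 clones. Its boundaries had 57, 62 and 46 retained reads for KO-1, 82, 59 and 65 for KO-2, 96, 76 and 74 for KO-3, and 65, 42 and 63 for KO-4, against 41, 36 and 32 in WT. Reads spliced across it numbered 62, 57 and 62 for KO-1, 71, 89 and 105 for KO-2, 100, 102 and 81 for KO-3, and 105, 109 and 100 for KO-4, against 181, 197 and 188 in WT. Every clone library was thus above every WT library in retained reads and below every WT library in spliced reads. RNA was taken from many cells together, so more cells retaining the intron and more retention per cell cannot be told apart. The retention level is the retained share after each read count is divided by the number of positions at which such a read can fall, 262 for the retained and 131 for the spliced form of every long intron. It averaged 31.3% ± 4.1 for KO-1, 28.4% ± 7.2 for KO-2, 30.3% ± 2.8 for KO-3 and 21.3% ± 4.4 for KO-4, against 8.80% ± 1.2 in WT (SD, n = 3 each). The log2 odds of retention, the log2 of the retained-to-spliced ratio in the clone over that in WT, rose by 2.24 ± 0.30 (SE) for KO-1, 2.01 ± 0.30 for KO-2, 2.17 ± 0.28 for KO-3 and 1.49 ± 0.29 for KO-4. The adjusted p-values of the quasi-binomial test over all introns were 7.4e-08, 1.2e-06, 4.1e-08 and 4e-04 in the same order of clones. By limma on the log2 odds with a pseudocount of 0.5 they were 0.026, 0.088, 0.037 and 0.23, so that KO-2 and KO-4 did not pass. Tested alone by limma-voom, spliced reads passed downward in all 4 clones. Retained reads passed upward in KO-1 and KO-3 but not in KO-2 or KO-4 (adjusted p 0.084 and 0.24). The longer intron 2 of the same gene (chr6:35891014-35920467, 29454 bases) was at 3.06%, 4.04%, 3.20% and 3.65% in KO-1 to KO-4, against 4.39% in WT, and passed the test in no clone (adjusted p 0.80 to 0.94).

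USP10 intron 5 also rose in all 4 clones, from few retained reads. It had 31, 21 and 13 retained reads for KO-1, 24, 35 and 32 for KO-2, 22, 37 and 30 for KO-3, and 29, 28 and 29 for KO-4, against 9, 16 and 12 in WT. The lowest clone library, with 13 reads in KO-1, lay below the highest WT library, but KO-1 was sequenced less deeply. In levels every clone library was above every WT library. The level averaged 4.94% ± 1.5 for KO-1, 4.04% ± 0.60 for KO-2, 3.94% ± 1.1 for KO-3 and 3.70% ± 0.048 for KO-4, against 1.44% ± 0.34 in WT (SD, n = 3 each). The change in log2 odds was 1.86 ± 0.41 for KO-1, 1.52 ± 0.39 for KO-2, 1.47 ± 0.39 for KO-3 and 1.39 ± 0.39 for KO-4 (SE), with adjusted p-values of 0.0025, 0.012, 0.037 and 0.024 by the quasi-binomial test. These calls are near the threshold, and 2 of 10 alternative settings ended the call for KO-1, 4 for KO-2, 6 for KO-3 and 7 for KO-4.

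CCDC84 intron 3 rose in KO-1, KO-2 and KO-4. Its level was 57.0%, 53.5% and 59.0% in the libraries of KO-1, 52.6%, 69.2% and 54.4% in KO-2, 41.3%, 52.3% and 50.8% in KO-3, and 49.8%, 60% and 56.3% in KO-4, against 32.3%, 26.0% and 36.0% in WT. All 12 clone libraries were above the 3 of WT. The change in log2 odds was 1.49 ± 0.34 for KO-1, 1.63 ± 0.34 for KO-2, 1.03 ± 0.33 for KO-3 and 1.41 ± 0.31 for KO-4 (SE), and the adjusted p-values of the quasi-binomial test were 0.005, 0.0015, 0.17 and 0.0028, so that KO-3 did not pass. The calls were lost without KO-1 library 1 or 3 (0.069 and 0.059), KO-2 library 2 (0.085) or KO-4 library 2 (0.071), in listed order. By limma on the log2 odds with a pseudocount of 0.5, the intron passed in no clone (adjusted p 0.094, 0.19, 0.47 and 0.23 for KO-1 to KO-4). Reads spliced across it fell by 1.20 on the log2 scale for KO-2, 0.75 for KO-3 and 0.81 for KO-4 (limma-voom, adjusted p 0.00027, 0.024 and 0.0041), and were lower by 0.62 without passing for KO-1 (adjusted p 0.071).

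**Figure D1:**
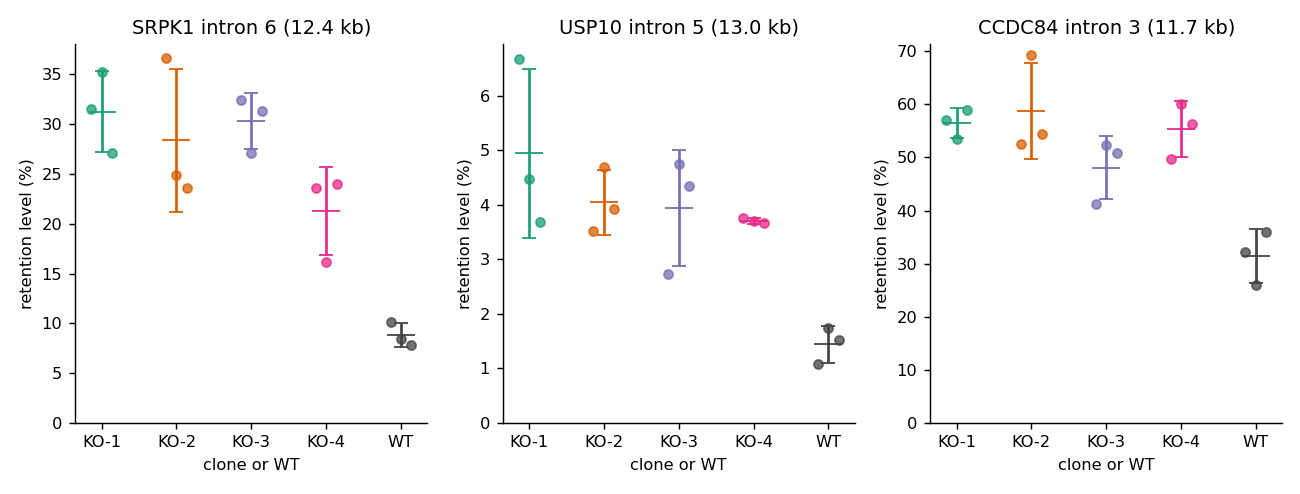
Retention level in percent of SRPK1 intron 6, USP10 intron 5 and CCDC84 intron 3 in KO-1, KO-2, KO-3, KO-4 and WT, with 1 point per library, the mean as a bar and the SD as whiskers. The WT libraries lie below every clone library in all 3 panels, and the 3 panels have different scales.

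The long introns differed from the shorter ones in where they lie. They had a median length of 17667 bases and a longest of 523672. A first intron of a transcript made up 43% of them, against 29.5% of introns up to 10 kb, and 70% held an annotated exon inside, against 35.1%. An exon of another gene lay inside 33.7%, against 9.08%. A transcript started inside 32.1% and ended inside 24.1%, against 10.2% and 8.83%. Of the long introns, 21.6% shared a start or an end with another long intron, so they are not independent of each other. Both ends could be read from annotated transcripts for 401 long introns, and 394 of these began with GT and ended with AG.

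Donors like those of U12-type introns were as common among long introns as among shorter ones. The first 8 bases were compared with ATATCCTT and GTATCCTT on the transcribed strand, with at most 1 mismatch. They matched in 20 of 2130 long introns with a readable donor (0.939%), against 251 of 28073 shorter ones (0.894%). The examples below have the first 8 intron bases in capitals and were chosen because they belong to long introns with enough reads for a test in some clone.
STX8: aacacatcagatGTATCCATgtaa
EIF4G3: ggcgccccaacaGTATCCTTttca
MAPK14: ctggtacagaccGTATCCTTtaaa
Of the 20 long introns, 4 were tested in at least 1 clone and none passed. The 23579-base MAPK14 intron (chr6:36076609-36100187), in the gene of the stress kinase p38 alpha, was at 18.3% for KO-1, 9.82% for KO-2, 8.63% for KO-3 and 5.80% for KO-4, against 8.50% in WT (adjusted p 0.25 to 0.99). The STX8 intron (chr17:9545283-9557433), in the gene of an endosomal SNARE, was at 7.69% in KO-4 against 4.69% in WT (adjusted p 0.54). A match of 8 bases describes the letters and does not show which spliceosome removes the intron.

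Over all listed introns the ends of long introns were retained less than those of shorter ones. In WT the median level was 0.694% for the 5747 long introns listed in all tables, against 1.33% for 77319 shorter ones. It was 0.790% at 10 to 20 kb, 0.583% at 20 to 50 kb and 0.471% over 50 kb, with 1.87% up to 1 kb and 0.997% at 1 to 10 kb. Spliced reads fell off too, with a median of 93.0 per WT library in long and 124 in shorter introns. Just past the limit, at up to 11 kb, 663 introns had a median level of 0.789%, and at 9 to 10 kb 750 had 0.765%.

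Among introns with enough reads for a test the order was the other way round. Such introns had to average 10 or more reads of each form over the libraries compared, which 491 long introns in 411 genes met in all 4 comparisons, or 8.54% of those listed, against 22.7% of shorter ones. Their median level was 19.6% ± 0.48 for KO-1, 19.7% ± 1.3 for KO-2, 18.9% ± 0.31 for KO-3 and 19.96% ± 0.41 for KO-4, against 18.3% ± 0.83 in WT (SD over 3 libraries), while 17573 shorter introns had 9.06%, 8.75%, 8.30% and 9.10%, against 8.35% in WT. The filter asks for retained reads, so it keeps the more retained of the long introns, and these levels are no measure of long introns in general. An end inside a same-strand exon of another transcript, leaving aside transcripts that GENCODE 29 itself classes as retained introns, went with the level. In WT the 310 tested long introns with such an end had a median of 26.8% ± 1.2, and the 181 without one had 8.56% ± 0.97. Among shorter introns these values were 14.9% ± 1.5 and 6.06% ± 1.0. Reads over such an end can come from the other exon and then show no retained intron.

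**Figure D2:**
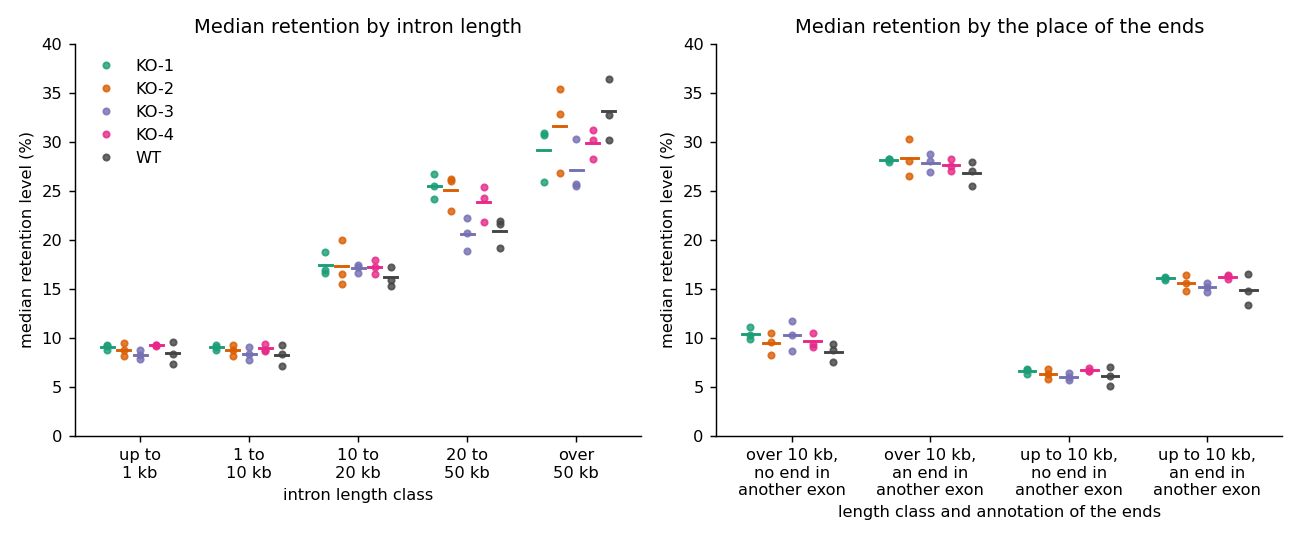
Median retention level in percent of the introns tested in all 4 comparisons, by length class (left) and by whether an end lies in an exon of another transcript (right). Each point is 1 library of KO-1, KO-2, KO-3, KO-4 or WT and each bar the group mean, and long introns with an end in another exon lie highest on the right, at 26.8% in WT.

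Set against shorter introns with similar retained reads, long introns had the higher level in every class and group. With a mean of 10 to 20 retained reads, 160 long introns had a median of 7.71% for KO-1, 7.26% for KO-2, 7.79% for KO-3 and 7.97% for KO-4, against 7.01% in WT, and 5618 shorter ones had 4.48%, 4.22%, 3.98% and 4.43%, against 4.19% in WT. With 50 to 100 reads, 75 long introns stood at 48.4%, 45.0%, 46.8% and 46.5% in KO-1 to KO-4, against 48.1% in WT, where 2668 shorter ones stood at 18.8%. In log2 odds the gap between long and shorter introns in that class was 1.96 ± 0.071 for KO-1, 1.77 ± 0.11 for KO-2, 1.93 ± 0.098 for KO-3 and 1.83 ± 0.23 for KO-4, against 2.03 ± 0.32 in WT (SD over 3 libraries). In KO-1 and KO-2 the gap lay within 1 SD of WT in all 5 classes, and in KO-3 and KO-4 in all but the class of 10 to 20 reads, where it was 1.06 ± 0.055 and 0.93 ± 0.14, against 0.82 ± 0.085 in WT. At equal retained reads, a higher level means fewer reads spliced across that same intron, and what lies behind the gap was not tested. The classes were not matched on ends inside other exons, which 310 of 491 tested long and 6944 of 17573 tested shorter introns had.

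**Figure D3:**
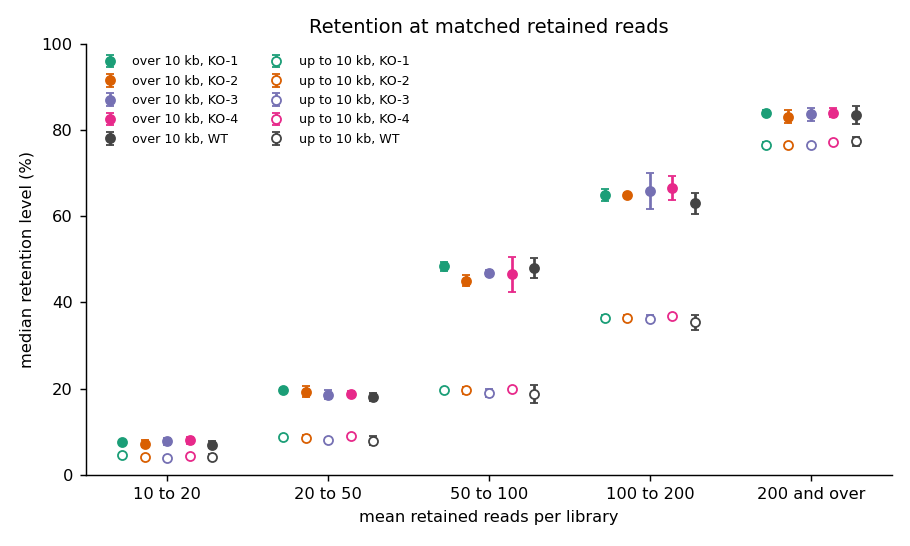
Median retention level in percent of long introns (filled) and shorter introns (open) in 5 classes of mean retained reads per library, for KO-1, KO-2, KO-3, KO-4 and WT, with the SD over 3 libraries. Filled points lie above open ones in every class, with the widest gap at 50 to 100 reads for KO-1 and WT and in the next class up for the other clones.

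In each clone a small number of long introns changed, most of them upward. In KO-1, 8 of 521 tested long introns were higher (1.54%) and 2 lower (0.384%), where 1.29% and 0.175% of all tested introns were. In KO-2, 11 of 751 were higher (1.46%) and 5 lower (0.666%), with 1.3% and 0.304% of all introns. In KO-3, 8 of 704 were higher (1.14%) and 2 lower (0.284%), with 0.558% and 0.155% of all. In KO-4, 14 of 771 were higher (1.82%) and 6 lower (0.778%), with 1.54% and 0.429% of all. The read minimum was met through a single group, in retained or spliced reads, by 1 of the 8 rises of KO-1, 3 of the 11 of KO-2, 1 of the 8 of KO-3 and 5 of the 14 of KO-4, and such introns had to differ to be tested. The shares called are near those of all introns or rest on few introns above them. The median change of the tested long introns was 0.12, 0.12, 0.10 and 0.12 in log2 odds for KO-1 to KO-4, and that of all tested introns was 0.13, 0.10, 0.02 and 0.17. Relative to that general shift the counts became 5 higher and 2 lower for KO-1, 10 and 9 for KO-2, 8 and 2 for KO-3, and 8 and 10 for KO-4, so the excess of rises over falls for KO-4 turned round. The counts also turned on single libraries. When the WT library listed 3rd was dropped, they came to 16 higher and 3 lower for KO-1, 22 and 8 for KO-2, 10 and 4 for KO-3, and 21 and 8 for KO-4. Without the WT library listed 1st they were 5 and 1, 8 and 2, 4 and 2, and 8 and 4 in the same order of clones, and without the one listed 2nd 4 and 2, 5 and 5, 3 and 2, and 8 and 5. Leaving out the KO-1 library listed 1st, 2nd or 3rd gave 2 and 2, 5 and 1, or 4 and 1 for KO-1. Leaving out a library of another clone gave counts as low as 5 and 2 for KO-2, 4 and 2 for KO-3 and 7 and 4 for KO-4, each without the library listed 2nd, and 9 and 4 for KO-4 without the one listed 1st. Limma on log2 odds, with a pseudocount of 0.5, called 1, 2, 3 and 1 long introns in all. Retained reads made up 15.8% of the junction reads of long introns in the WT library listed 3rd, against 15.2% and 14.9% in the other WT libraries.

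Of the 491 long introns tested in all 4 comparisons, 461 passed in none. The 2 that were higher in all 4 clones were those of SRPK1 and USP10, and 42 of 18064 tested introns of any length (0.233%) were higher in all 4. None was lower in all 4 clones, where 2 of all introns were (0.0111%). At an unadjusted p under 0.05 in every clone, the quasi-binomial test had 6 of the 491 higher and 1 lower, with 0.991% and 0.149% of all introns, and limma on log2 odds had 10 higher and none lower, with 0.797% and 0.105% of all. The 4 comparisons share the WT libraries, so a WT value that lies low by sampling enters all of them. The authors' deposited table, at its own FDR under 0.05, had 27 listed long introns higher and 12 lower for KO-1, with 0.637% and 0.183% of all listed introns. For KO-2 the authors' deposited table had 35 and 27, with 0.834% and 0.33% of all. For KO-3 it had 25 and 11 in the authors' deposited table, with 0.37% and 0.177%, and for KO-4 62 and 20, with 1.13% and 0.271%.

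**Figure D4:**
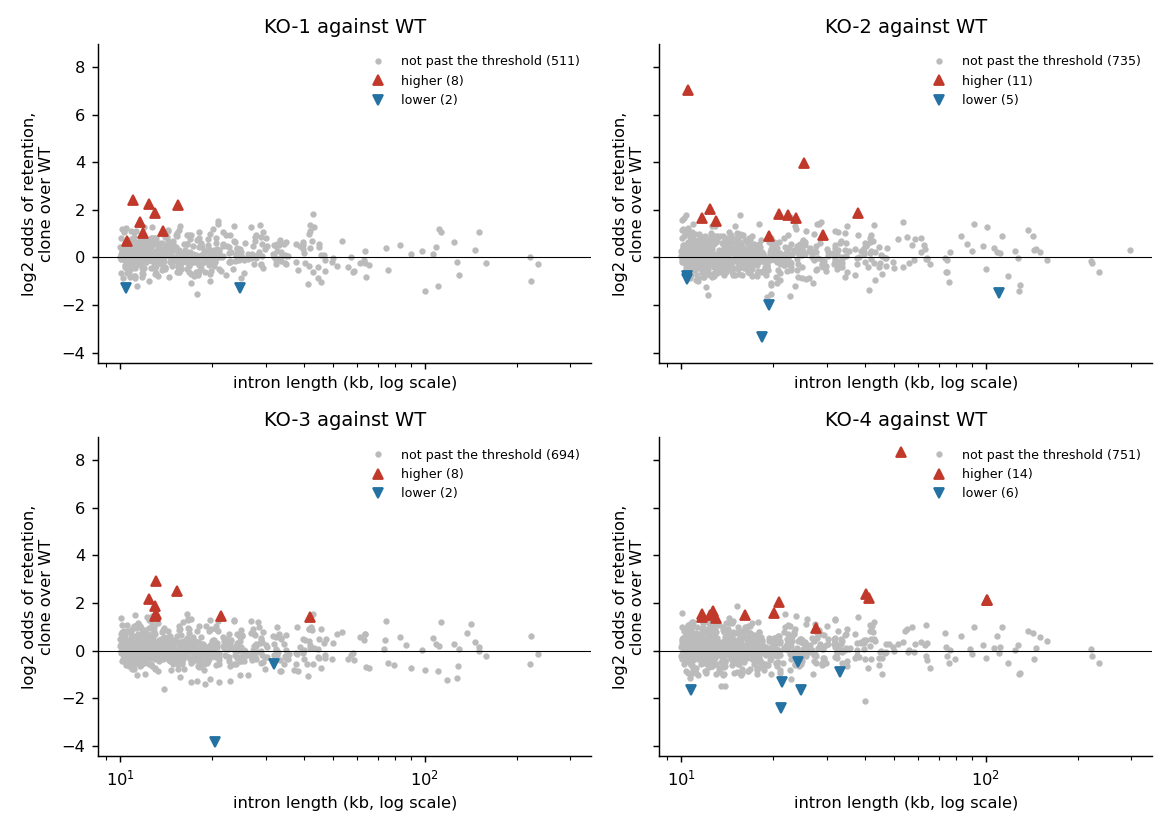
Change in log2 odds of retention, clone over WT, against intron length in kb (log scale) for every tested long intron in KO-1 to KO-4. Triangles mark introns past the threshold, 8 higher and 2 lower for KO-1, 11 and 5 for KO-2, 8 and 2 for KO-3, and 14 and 6 for KO-4, and most lie under 50 kb.

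Rises were also counted by where the ends lie. With no end in another exon they numbered 7 of 197 for KO-1, 8 of 318 for KO-2, 5 of 287 for KO-3 and 10 of 327 for KO-4, against 1 of 324, 3 of 433, 3 of 417 and 4 of 444 with an end in another exon. Of all tested introns of any length, 1.29%, 1.24%, 0.55% and 1.58% were higher with no such end, and 1.3%, 1.39%, 0.57% and 1.48% with one. The rises of long introns with no such end include those of SRPK1, USP10 and CCDC84, described above because they rose. They also include introns that met the read minimum through a single group, among them TRIM62 in KO-2 and MID1 and AC012363.1 in KO-4. SLC1A3 and ANKRD11 in KO-4 did so among the rises with such an end. Of long introns holding no annotated exon, 4 of 37 were higher for KO-1, 4 of 56 for KO-2, 2 of 51 for KO-3 and 2 of 59 for KO-4, where 1.35%, 1.03%, 0.556% and 1.43% of all tested introns without an exon inside were. SRPK1 and USP10 gave 2 of each of these 4 counts of long introns holding no annotated exon. The others were GAS6 and HNRNPD in KO-1 and TRIM62 and CUL1 in KO-2, of which HNRNPD and CUL1 are named only because the counts are small, and TRIM62 and CUL1 had enough retained reads through KO-2 alone. These subsets were described and not tested.

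Some long introns had many retained reads in 1 clone and hardly any elsewhere. They reached the read minimum only through that clone, so their levels are a description and no test is given for them. TRIM62, which encodes an E3 ubiquitin ligase, had 39, 34 and 26 retained reads over intron 4 (chr1:33147728-33158252) in KO-2, against 1, 0 and 0 in WT, beside 23, 25 and 32 spliced reads in KO-2 and 36, 39 and 30 in WT. Its level was 38.4% ± 8.7 in KO-2 and 0.457% ± 0.79 in WT (SD, n = 3 each). The level was 1.80% in both KO-3 and KO-4, where the intron was not tested, and it was not listed for KO-1.

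MID1, on the X chromosome, encodes a microtubule-associated E3 ubiquitin ligase. Its 52686-base intron 2 (chrX:10567604-10620289) had 57, 55 and 55 retained and 3, 4 and 10 spliced reads in KO-4, against 3, 4 and 0 retained and 64, 100 and 70 spliced reads in WT. The level was 83.7% ± 9.1 in KO-4 and 1.42% ± 1.2 in WT (SD, n = 3 each). Every KO-4 library was above every WT library in retained reads and below every WT library in spliced reads. The other clones had 0 to 1 retained reads per library and levels of 0% to 0.917%. KO-4 alone brought this intron past the read minimum, and it was tested in no other clone.

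ACSL5, which encodes a fatty acyl-CoA synthetase, fell in KO-2, and PPP3CA, the catalytic subunit of calcineurin, was low in KO-3. ACSL5 intron 1 of 20 (chr10:112376449-112394917) had 12, 9 and 15 retained reads in KO-2, against 62, 68 and 53 in WT, and its level was 1.83% ± 0.33 in KO-2 and 15.9% ± 1.1 in WT (SD, n = 3 each; adjusted p 1.1e-11, quasi-binomial test). In KO-3 its level was 14.1% without passing (adjusted p 0.94), and the intron was not listed for KO-1 or KO-4. PPP3CA intron 10 (chr4:101040567-101061086) had 3, 2 and 1 retained reads in KO-3, against 32, 25 and 36 in WT, with 558, 491 and 458 spliced reads in KO-3 and 519, 589 and 541 in WT. Its level was 0.193% ± 0.080 in KO-3 and 2.76% ± 0.60 in WT (SD, n = 3 each), and the other clones were at 1.59% to 2.49%. Neither intron holds an annotated exon. In the comparison of KO-3 with WT, PPP3CA met the minimum of retained reads through WT alone, so no test of its retention is given, and its spliced reads did not pass (adjusted p 0.58, limma-voom).

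SEC31A, a subunit of the COPII coat, and MAL2, a protein of apical transport, rose in KO-3 in different ways. The 13081-base SEC31A intron (chr4:82829059-82842139) had 17, 16 and 15 spliced reads in KO-3, against 99, 107 and 110 in WT, and 18, 16 and 18 retained reads in KO-3, against 14, 13 and 18 in WT. Its level was 35.1% ± 2.1 in KO-3 and 6.63% ± 0.92 in WT (SD, n = 3 each; adjusted p 4.8e-05, quasi-binomial test). MAL2 intron 1 (chr8:119208605-119221586) had 107, 60 and 82 retained reads in KO-3, against 20, 21 and 18 in WT, while its spliced reads did not pass (adjusted p 0.14, limma-voom). Its level was 11.9% ± 3.3 in KO-3 and 3.53% ± 0.17 in WT (SD, n = 3 each; adjusted p 1.8e-05, quasi-binomial test). All libraries of KO-3 lay above all of WT in both genes. The MAL2 intron holds 5 exons of the antisense gene MAL2-AS1, and reads of the 2 strands may not have been kept apart in the counts.

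CD44, the hyaluronan receptor, had 5 tested long introns that start at the same base (chr11:35190066) and end at different exons, in the stretch where its variable exons lie. Exons of CD44-AS1 lie inside the longer ones. Those of 14446 and 18039 bases passed in no clone (adjusted p 0.57 to 0.98), at 44.7% and 14.9% in KO-1, 41.5% and 18.3% in KO-2, 41.4% and 14.2% in KO-3, and 41.8% and 18.3% in KO-4, against 38.1% and 15.4% in WT. The shortest, 11016 bases, was at 82.8% ± 13 in KO-1 and 43.2% ± 4.0 in WT (SD, n = 3 each), with 51, 39 and 30 retained reads in KO-1, 62, 61 and 69 in WT, and 11, 1 and 3 spliced reads in KO-1, against 34, 43 and 51 in WT. The longest, 24786 bases, fell in KO-1 to 5.20% ± 2.6 and in KO-4 to 4.07% ± 1.2, against 11.6% ± 3.2 in WT. The intron of 21180 bases was at 50.7% ± 3.4 in KO-4 and 85.0% ± 7.3 in WT. The adjusted p-values of the quasi-binomial test for the 24786-base intron were 0.028 and 0.00022. The first was lost without the WT library listed 1st (0.26) or the KO-1 library listed 2nd or 3rd (0.28 and 0.25). The 11016-base intron in KO-1 and the 21180-base intron in KO-4 met the minimum of spliced reads through 1 group alone, so no test is given for them. Retained reads of the 24786-base intron did not pass in either clone (adjusted p 1 and 0.72, limma-voom), and its spliced reads numbered 191, 231 and 237 in KO-1 and 444, 482 and 315 in KO-4, against 123, 140 and 172 in WT. In KO-3 the 11016-base intron had more spliced reads, 99, 93 and 97 against 34, 43 and 51 in WT, with no change in retention past the threshold (adjusted p 0.74).

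KRT8, a keratin of simple epithelia, held a long intron with many retained and few spliced reads. The 21384-base KRT8 intron (chr12:52905028-52926411) had 9457, 9119 and 8087 retained reads in KO-3 and 6742, 6970 and 6698 in KO-4, against 5407, 7300 and 6741 in WT, beside 12, 13 and 18 spliced reads in KO-3 and 77, 73 and 75 in KO-4, against 20, 31 and 36 in WT. The level was 99.7% ± 0.10 in KO-3 and 97.8% ± 0.095 in KO-4, against 99.1% ± 0.16 in WT (SD, n = 3 each). The log2 odds rose by 1.47 ± 0.36 in KO-3 and fell by 1.30 ± 0.23 in KO-4 (SE; adjusted p 0.018 and 2.1e-05, quasi-binomial test). The call in KO-3 was lost under 6 of 10 alternative settings, among them leaving out the WT library listed 2nd or 3rd (0.11 and 0.12) or the KO-3 library listed 1st or 2nd (0.15 and 0.11), and the authors' deposited table gave it an FDR of 1. An end of this intron lies in another annotated exon.

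The remaining introns with the largest changes of each clone were mixed. None of the calls given here passed by limma on the log2 odds with a pseudocount of 0.5 (adjusted p from 0.2 for FAM122B in KO-1 to 0.69 for CPNE1 in KO-3). GAS6, a ligand of receptor tyrosine kinases, rose in KO-1 to 28.1% ± 16, against 9.12% ± 6.8 in WT, and its libraries overlapped (25.0%, 14.3% and 45.1% in KO-1, 5.56%, 4.83% and 17.0% in WT; adjusted p 0.026 by the quasi-binomial test over all introns). That call was lost without WT library 1 or 2 or KO-1 library 1 in listed order (0.15, 0.087 and 0.1). FAM122B fell in KO-1 to 33.7% and in KO-2 to 42.5%, against 55.9% in WT (adjusted p 6.8e-05 and 0.044). The call in KO-2 was lost under 8 of 11 alternatives, among them leaving out any 1 of the 6 libraries (0.085 to 0.19). CPNE1 fell in KO-3 to 36.0%, against 45.1% in WT (adjusted p 0.004), and PDE6D rose in KO-3 to 13.3%, against 5.59% in WT (adjusted p 0.04), a call lost without WT library 1 or 2 or KO-3 library 1 or 2 (0.17 to 0.25). The noncoding AC012363.1, whose intron spans exons of EPB41L5, was at 54.3% ± 12 in KO-4 and 18.4% ± 12 in WT. HMGA2, a chromatin protein, fell in KO-2 to 3.999% against 7.18% in WT at its 10431-base intron (adjusted p 0.0075), a call lost without WT library 1 or KO-2 library 2 (0.093 and 0.1). PAM, which amidates peptides, fell in KO-2 to 6.74% against 15.9% in WT at an intron of 110474 bases (adjusted p 0.024), the longest called in that clone, with both ends in other exons. It was lost without WT library 1 or KO-2 library 2 or 3 (0.1, 0.38 and 0.1). MAD2L2, a subunit of DNA polymerase zeta, fell in KO-4 to 29.1% against 56.6% in WT (adjusted p 3.4e-05), and its spliced reads numbered 145, 159 and 122 in KO-4, against 49, 26 and 31 in WT. SLC1A3, a glutamate transporter, was at 14.02% in KO-4 and 3.48% in WT, and its spliced reads were also higher, 148, 96 and 112 in KO-4 against 37, 30 and 48 in WT. ANKRD11, a chromatin regulator, held the longest called intron of KO-4, of 101208 bases, which was at 19.1% in KO-4 and 4.99% in WT. A second USP10 intron, of 25212 bases with the same end as intron 5, was at 73.4% in KO-2 and 14.2% in WT on 5, 1 and 5 spliced reads in KO-2 and 17, 28 and 20 in WT. The introns of AC012363.1, SLC1A3, ANKRD11 and this one of USP10 met the read minimum only through 1 group, so no test is given for them. An end of the FAM122B, CPNE1, PDE6D, MAD2L2, SLC1A3 and ANKRD11 introns also lies in another annotated exon, and reads there can come from that exon.

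Most rises of KO-1, KO-2 and KO-4 went with fewer spliced reads. Spliced reads passed the test downward in 7 of the 8 rises of KO-1, 9 of 11 for KO-2, 3 of 8 for KO-3 and 9 of 14 for KO-4, and retained reads passed upward in 2, 1, 4 and 5. These tallies include the 1, 3, 1 and 5 rises that met the read minimum through a single group and had to differ to be tested. The 1 with more retained reads in KO-2 was TRIM62, and MID1 and SLC1A3 were among those of KO-4. The tallies are therefore a description of the called introns only. Among the risen shorter introns, spliced reads passed downward in 106 of 235 for KO-1, 177 of 296 for KO-2, 51 of 114 for KO-3 and 188 of 360 for KO-4. Of the falls, spliced reads passed upward in both of KO-1, 2 of 5 in KO-2, neither of 2 in KO-3 and all 6 of KO-4. Among them, 1 fall of KO-3 and 1 of KO-4 also met the read minimum through a single group. Retained reads are fewer than spliced reads in most introns, so a change in them is harder to detect.

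**Figure D5:**
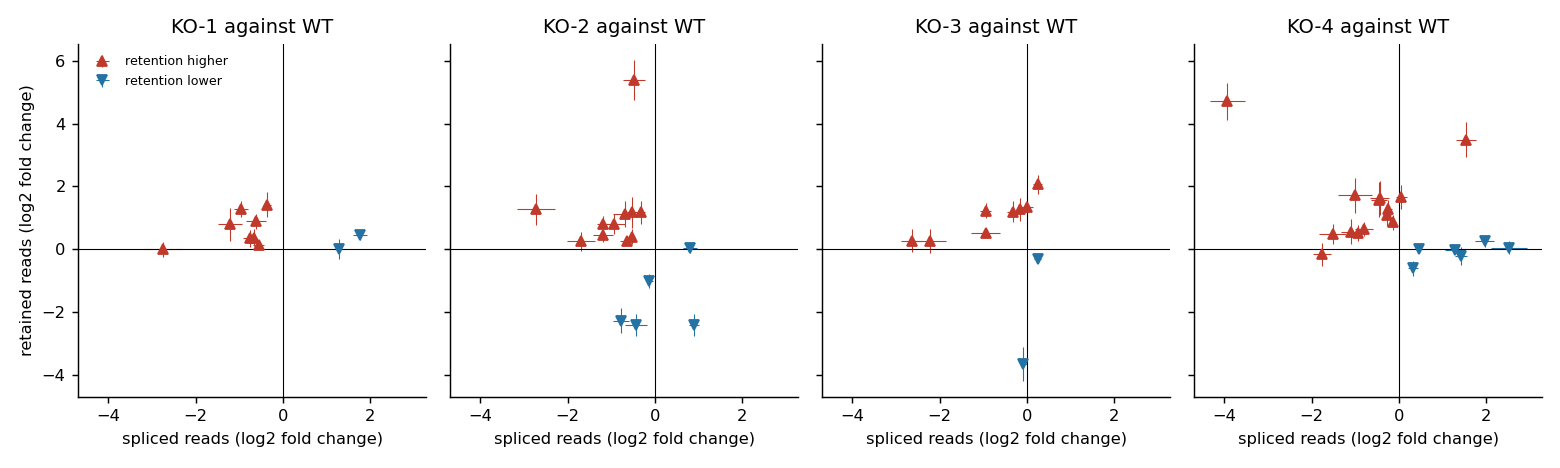
Log2 fold change of retained reads (vertical) against that of spliced reads (horizontal), clone over WT, for the long introns past the retention threshold in KO-1 to KO-4, with SE bars. Most introns with higher retention (upward triangles) lie to the left of 0, with fewer spliced reads in the clone, and ACSL5, PAM and PPP3CA are among the falls with fewer retained reads. The points include introns that met the read minimum through a single group, PPP3CA in KO-3 among them.

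More long introns had lower than higher spliced reads in KO-2, KO-3 and KO-4, and so did introns of 1 to 10 kb. Among tested long introns, spliced reads were higher in 32 and lower in 33 for KO-1, 42 and 114 for KO-2, 22 and 39 for KO-3, and 71 and 148 for KO-4, where 6.54% and 5.78%, 14.9% and 13.2%, 5.07% and 4.53%, and 16.1% and 16.4% of all tested introns were (limma-voom). Retained reads of the same long introns were higher in 11 and lower in 2 for KO-1, 14 and 21 for KO-2, 9 and 6 for KO-3, and 30 and 28 for KO-4, where 1.57% and 0.303%, 2.82% and 0.896%, 0.842% and 0.265%, and 5.28% and 2.05% of all tested introns were. With every listed long intron the counts were 276 higher and 275 lower of 6625 for KO-1, 336 and 1459 of 7978 for KO-2, 189 and 722 of 7651 for KO-3, and 535 and 1498 of 8108 for KO-4. The lower shares were 4.15%, 18.3%, 9.44% and 18.5%, where 4.53%, 16.9%, 8.23% and 17.3% of all listed introns were, and the higher shares were 4.17%, 4.21%, 2.47% and 6.60%, where 4.89%, 8.99%, 3.34% and 11% were. Listed introns of 1 to 10 kb were lower in 4.44%, 18.8%, 8.3% and 19.2%, so the lower shares are not particular to long introns. The median log2 change was -0.01, -0.16, -0.12 and -0.13 for long introns, and 0.00, -0.08, -0.06 and -0.05 for shorter ones. Among the shorter ones it was -0.01, -0.12, -0.07 and -0.10 at 1 to 10 kb and 0.01, -0.03, -0.05 and -0.004 up to 1 kb.

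The gap in spliced reads between long and shorter introns was small and alike in the libraries of a clone. Long minus shorter introns, as log2 spliced reads relative to WT, came to -0.10, -0.08 and -0.08 in the libraries of KO-2, -0.05, -0.06 and -0.04 in KO-3 and -0.07, -0.08 and -0.08 in KO-4, against -0.02 to 0.01 in the WT libraries. In KO-1 the libraries were at -0.02, -0.01 and 0.00. The WT libraries were set against their own mean, so their values lie around 0 by construction and are no independent measure of the WT spread. The median of long first introns was -0.18 for KO-2, -0.16 for KO-3 and -0.18 for KO-4, that of other long introns -0.14, -0.09 and -0.10, and that of shorter first introns -0.05, -0.05 and -0.06. Long last introns were at -0.12, -0.06 and -0.08. Shorter introns of genes that also have a listed long intron were at -0.12, -0.09 and -0.06, and those of other genes at -0.05, -0.05 and -0.05. The part that place along the transcript or RNA quality has in this gap was not tested.

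None of the 5 longest, 5 most retained and 5 least retained of the long introns tested in all comparisons passed the retention test in any clone. The 222127-base PCDH7 intron 3 (chr4:30920346-31142472), in a protocadherin gene, was at 65.2%, 62.1%, 55.3% and 65.8% in KO-1 to KO-4, against 64.6% in WT (adjusted p 0.55 to 0.99). The 146291-base VTI1A intron 7 was at 7.87%, 7.84%, 8.27% and 6.74%, against 6.29% in WT, and MACROD1 intron 3 (150895 bases) was at 51.7%, 41.3%, 36.6% and 42.7%, against 35.0% in WT, on few reads for MACROD1. Of the most retained, SPINT2 intron 1 was at 95.8%, 95.1%, 95.2% and 95.9%, against 95.4% in WT, and an end of each of these 5 introns lies in another exon. At the other end, PKM intron 1 stood at 0.334%, 0.302%, 0.310% and 0.307% in KO-1 to KO-4, against 0.267% ± 0.063 in WT, on 4586 to 9891 spliced reads in the clones and 5899 to 6914 in WT. YWHAZ, ANXA2, HNRNPC and EIF3E were below 1% in every library.

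The clones also differed from each other. With the 12 clone libraries alone, 51 of 605 long introns differed among clones (8.43%), where 6.41% of all 21223 introns did (quasi-binomial test). Among them were KRT8 (adjusted p 4.7e-15) and the 24786-base CD44 intron (1.2e-12). The MID1 intron and the 21180-base CD44 intron were also called. MID1 reached the minimum of retained reads through KO-4 alone. The 21180-base CD44 intron averaged 37.3 spliced reads in KO-4 and 13.3, 7.33 and 1.67 in KO-1 to KO-3. It reached the minimum of spliced reads over the 12 libraries through KO-4. WT libraries have no part in this test.

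Lists of genes known for long introns gave few tested members. Of 20 common fragile site genes, 7 had a listed long intron, 26 in all, and none was tested. Of 20 genes with intronic polyadenylation, 13 had 28 listed long introns, of which 3 were tested in each clone; 1 fell, in KO-4, and none rose. It was CSTF3, a cleavage stimulation factor, at 9.81% ± 2.5 in KO-4 and 16.8% ± 2.4 in WT (SD, n = 3 each; adjusted p 0.047, quasi-binomial test), and at 22.3% to 25.0% in the other clones without passing. The call was lost under 6 of 11 alternatives, among them leaving out WT library 1 or 2 (0.13 and 0.24) or KO-4 library 1 or 2 (0.33 and 0.18). An end of this intron lies in another annotated exon. Of the kinases of SR proteins, 2 long introns were tested, both of SRPK1, and 1 rose. Of the receptor and adhesion genes, those that passed were the CD44 introns above. Of the chromatin regulators, 3 were tested and none passed. The lists' medians over so few introns are not given.

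The 15 libraries held 17287797 to 35348260 junction reads, of which 712731 to 1388555 fell on long introns, and those of KO-1 were the shallowest. The epithelial genes EPCAM, KRT8, KRT18 and CDX2 were listed with spliced reads in all 4 tables and CDH1 in 3, and VIL1 was not listed. Of 6 markers of blood, stromal and endothelial cells COL1A1 alone was listed, with 169 to 2025 spliced reads per clone library and 1084 to 1544 per WT library.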

How the data were processed

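Polyadenylated RNA of 3 WT libraries and 3 libraries of each clone was sequenced. The submitters' processing notes name cutadapt 2.0, STAR 2.7.1a and the build hg38. Those notes and the file headers give neither the tool that counted the junction reads nor the test behind the deposited p-values. The deposited tables hold the authors' raw counts of retained and spliced junction reads, inclusion levels as fractions, effective lengths as another deposited measure, and the authors' p-values and FDR values. Every listed intron has at least 20 junction reads. Each cell lists 3 libraries without replicate numbers. They are given in listed order, and which set is WT rests on the names of the tables and on that set being identical in all 4. The p-values measure only the spread between these libraries.

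Retention was tested with a quasi-binomial model of retained against spliced reads, its dispersion moderated with limma 3.58.1 (R 4.3.3) and kept at 1 or more, with Benjamini-Hochberg adjustment over all introns tested and a threshold of 0.05. Spliced and retained reads were tested separately with limma-voom, in place of the count test first planned. Scripts were tested on simulated data. Annotation and sequences came from GENCODE 29 on GRCh38. Named introns were those past the threshold in at least 3 clones, the 3 largest rises and falls of each clone, the longest, most and least retained, and called members of the gene lists, with at most 1 per gene in each set. The members and lists were chosen with earlier results of these data known. Alternatives were other filters, tests, thresholds and libraries left out.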

Additional observations from a re-analysis of the deposited data

Results flagged for a closer look

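Of the long introns described above, 13 differed among the 4 clones in the quasi-binomial test over the 12 clone libraries, with Benjamini-Hochberg adjustment over all introns tested. The adjusted p-value was 9.3e-37 for MID1, 4.7e-15 for the 21384-base intron of KRT8, 3.6e-10 for MAD2L2, 1.2e-09 for FAM122B and 2.3e-08 for CSTF3. The CD44 introns of 21180, 24786 and 11016 bases had 3.7e-13, 1.2e-12 and 6.1e-07. It was 2.9e-06 for HMGA2, 1.2e-05 for PPP3CA, 0.00019 for SEC31A, 0.00045 for CPNE1 and 7e-04 for GAS6. MID1 was at 83.7% in KO-4 and at 0% to 0.455% in the means of the other clones. The MID1 intron met the minimum of retained reads through KO-4 alone, so it had to differ to be tested. The 21180-base CD44 intron met the minimum of spliced reads through KO-4, where they were most numerous.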

How the results depend on the processing

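Of 369 values of the 36 named intron and clone pairs under alternatives, 256 kept direction and call, 113 lost the call and 0 reversed. All 36 pairs were taken because they were called in the main test, so these totals are no independent support. They include pairs that met the read minimum through a single group and had to differ to be tested. TRIM62 in KO-2, PPP3CA in KO-3 and MID1 in KO-4 are such pairs, and each kept its call in 10 of 10 alternatives. The counts of called long introns were 10, 16, 10 and 20 in KO-1 to KO-4. Without a filter on reads they were 17 in KO-1 and 27 in KO-2. With at least 50 reads of each form they were 1, 5, 3 and 6. By limma on log2 odds they were 1, 2, 3 and 1 with a pseudocount of 0.5 and 3, 6, 3 and 1 with 2. By the authors' deposited FDR they were 39, 62, 36 and 82. At an adjusted p under 0.01 they were 5, 10, 5 and 10. Over 20 kb they were 1, 7, 4 and 13, and over 5 kb 21 in KO-1 and 40 in KO-4. With no annotated exon inside they were 4, 5, 3 and 2. With neither end in another exon, a choice made after seeing the data, they were 6 in KO-3 and 12 in KO-4. Leaving out 1 library gave 4 to 19, 7 to 30, 5 to 14 and 11 to 29.

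The 2 introns higher in all 4 clones became 0 with at least 50 reads, by limma and over 20 kb, 1 when centred or at an adjusted p under 0.01, and 1 to 2 with a library left out. Without a filter, spliced reads gave 551, 1795, 911 and 2033 calls and retained reads 54, 118, 62 and 203. Leaving out 1 library gave 41 to 54, 104 to 164, 36 to 55 and 163 to 223 for spliced reads and 3 to 27, 16 to 51, 7 to 21 and 31 to 85 for retained reads. The 51 introns that differed among clones became 18 with at least 50 reads and 29 to 34 with a library left out.

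The median level in KO-1, KO-2, KO-3, KO-4 and WT was 32.7%, 32.9%, 31.8%, 33.3% and 30.9% without length scaling, 0.695%, 0.698%, 0.705%, 0.700% and 0.693% without the filter, 25.6%, 25.8%, 21.5%, 24.7% and 22.4% over 20 kb, 13.5%, 12.9%, 12.7%, 12.8% and 12.6% over 5 kb, and 10.4%, 9.42%, 10.2%, 9.63% and 8.56% with neither end in another exon. The cause of these shifts was not tested beyond what each subset sets by its choice of introns. No paired analysis was possible because the lists of libraries carry no replicate numbers. The other count tests first planned were not run. Low retained reads limit most long introns, of which 8.54% had enough for a test.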
